A study of Mus musculus with 2 samples.

Results

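Mir375 and the 3 miR-7 genes Mir7-1, Mir7-2 and Mir7b were described in microRNA (miRNA) sequencing libraries of mouse adrenal glands. These 4 genes, out of 2202 miRNA genes in the count tables, were chosen by name, as miRNAs known from endocrine and nerve cells, through their Ensembl identifiers in the GENCODE M21 annotation. The libraries came from adrenal glands of male B6CASTF1/J mice, first-generation hybrids between C57BL/6 and CAST/EiJ, aged 10 days. No treatment and no engineered allele is named in the labels. The series held 1 group of 2 libraries, numbered as biological replicates in the labels and made from different males under a shared donor record, and whether glands were pooled is not given in the sources used here. With no second condition, levels were described per library, and replicate 2 was set against replicate 1.

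A miRNA is a short RNA cut from a hairpin precursor, and bases 2 to 8 of the mature strand, the seed, pair with target messenger RNAs. miR-375 is known from pancreatic islets, where it restrains insulin secretion, and from other endocrine and neuroendocrine cells, among them those of the pituitary. miR-7 is known from pituitary, islets and neurons, and in brain it is bound by the circular RNA Cdr1as. The adrenal gland joins a steroid-producing cortex to a medulla of chromaffin cells, which are neuroendocrine. In RNA of whole glands, fewer cells of a type and less RNA per cell cannot be told apart.

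The sequences show how the 4 genes are related and which bases their hairpins have in common. They were taken from RefSeq (build GRCm38.p6), where all 4 genes matched by symbol, and the capitals in the mature strands mark the seed. mmu-miR-375-3p is not shown, because the sequences used hold no entry for it.
mmu-miR-375-5p: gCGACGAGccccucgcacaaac
mmu-miR-7a-5p: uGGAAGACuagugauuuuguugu
mmu-miR-7b-5p: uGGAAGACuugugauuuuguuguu
mmu-miR-7a-1-3p: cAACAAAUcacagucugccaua
mmu-miR-7a-2-3p: cAACAAGUcccagucugccaca
mmu-miR-7b-3p: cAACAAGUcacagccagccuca

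The strand mmu-miR-7a-5p is held by both the Mir7-1 and the Mir7-2 hairpin, base for base. mmu-miR-7b-5p has the same seed, and no other mature strand in the table has it. Over the 23 bases that both strands have, mmu-miR-7a-5p and mmu-miR-7b-5p differed by 1 substitution, A10U, with positions counted from the 5′ end and the base of mmu-miR-7a-5p given first. mmu-miR-7b-5p is 1 base longer. On the other arm the strands of all 3 genes differ: mmu-miR-7a-1-3p and mmu-miR-7a-2-3p by A7G, A10C and U21C, and mmu-miR-7a-1-3p and mmu-miR-7b-3p by 5 substitutions over 22 bases. The first of these, A7G, lies in the seed, so that mmu-miR-7a-2-3p and mmu-miR-7b-3p have one seed and mmu-miR-7a-1-3p another. The seed of mmu-miR-375-5p was found in no other mature strand of the table. That of mmu-miR-375-3p, which lies on the other arm, was not compared.

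In the hairpins, capitals mark the mature strands held in the table, which shows the bases that set Mir7-1 and Mir7-2 apart around their common strand.
Mir7-1 hairpin: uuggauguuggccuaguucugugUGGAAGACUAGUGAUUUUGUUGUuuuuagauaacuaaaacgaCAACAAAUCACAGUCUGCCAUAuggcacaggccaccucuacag
Mir7-2 hairpin: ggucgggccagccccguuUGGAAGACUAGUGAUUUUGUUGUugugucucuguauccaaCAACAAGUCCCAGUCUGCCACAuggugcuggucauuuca
Mir7b hairpin: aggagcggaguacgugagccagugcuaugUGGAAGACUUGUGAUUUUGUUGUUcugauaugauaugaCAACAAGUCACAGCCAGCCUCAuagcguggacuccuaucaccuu
Mir375 hairpin: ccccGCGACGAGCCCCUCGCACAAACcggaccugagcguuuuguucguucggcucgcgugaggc

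The longest run of bases in both the Mir7-1 and the Mir7-2 hairpin was 24 bases long and covers the whole of mmu-miR-7a-5p. Either of them had a run of at most 14 bases in common with Mir7b, and Mir375 had one of at most 7 bases with any of the 3. Of the 91 windows of 18 bases in the Mir7-1 hairpin, 7 were also in the Mir7-2 hairpin, and so were 7 of the 80 windows of Mir7-2 in Mir7-1. None of the 94 windows of Mir7b or of the 47 windows of Mir375 was found in any of the other 1004 hairpins searched. These tables give multiply mapped reads to no gene. A read that lies wholly within the common run, such as full-length mmu-miR-7a-5p, cannot be placed. The counts of Mir7-1 and Mir7-2 therefore come from reads that reach beyond this run or lie outside it. They are uncertain, can be too low and do not measure mmu-miR-7a-5p. Only exact matches within these hairpins were searched, and the rest of the genome was not. Whether the authors' alignment also left Mir7b reads unassigned, through the single substitution from mmu-miR-7a-5p, was not tested. The multiply mapped reads numbered 2308583 in replicate 2 (25.9% of its reads) and 2065487 in replicate 1 (27.5%), and the tables do not split them by gene. The counts are also not split by arm, so the share of each mature strand in a gene's reads was not tested.

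The 4 genes lie on 4 chromosomes, far from other miRNA genes. In the M21 annotation of mm10, the nearest other miRNA gene was 308892 bases from Mir375, 79630 bases from Mir7-1, 616891 bases from Mir7-2 and 70863 bases from Mir7b. Mir375 (ENSMUSG00000065616.3) lies on the minus strand at chr1:74900658-74900721, between the crystallin gene Cryba2, 7515 bases away, and Cfap65, 1350 bases away. Mir7-1 (ENSMUSG00000065434.1) lies at chr13:58392779-58392886 in an intron of Hnrnpk, on the same strand, and Hnrnpk encodes an abundant RNA-binding protein. Mir7-2 (ENSMUSG00000065609.1) lies on the plus strand at chr7:78888277-78888373, outside annotated genes, 7481 bases from Aen and 41014 bases from Det1. Mir7b (ENSMUSG00000065491.1) lies on the plus strand at chr17:56242988-56243098, 183 bases from the long non-coding RNA AC026385.1 and between Dpp9 and Fem1a. No member overlaps a gene on the other strand.

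By counted reads, Mir375 was one of the most abundant miRNA genes, with almost the same level in both libraries. Values are CPM, read counts scaled to a common total of the reads assigned to miRNA genes on their own strand, with no scaling for length, since a read is a whole short RNA. Mir375 had 34383 CPM in replicate 2 and 34144 CPM in replicate 1, from 105901 and 97098 counts, and averaged 34264 ± 168 CPM (SD, n = 2). The 95% Wilson intervals, which cover counting error only, ran from 34180 to 34587 CPM in replicate 2 and from 33934 to 34356 CPM in replicate 1, and they overlap. It held 3.44% of the assigned reads of replicate 2 and 3.41% of those of replicate 1. It stood at rank 7 of all genes in replicate 2 and at rank 8 in replicate 1. These ranks rest on counted reads only. Genes with near-identical copies can lose reads to multiple mapping and so rank too low.

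Mir7b carried most of the reads counted for miR-7 and was lower in replicate 2. It had 3120 CPM in replicate 2 (9611 counts, interval 3059 to 3183 CPM) and 5272 CPM in replicate 1 (14991 counts, interval 5188 to 5356 CPM), with a mean of 4196 ± 1521 CPM (SD, n = 2). It stood at rank 50 in replicate 2 and at rank 37 in replicate 1. Mir7-1 had 244.5 CPM in replicate 2 and 389.6 CPM in replicate 1, from 753 and 1108 counts, at ranks 156 and 132. Mir7-2, which in mice is needed for pituitary gonadotropin production, had the lowest counted level of the 4. It had 47.4 CPM in replicate 2 and 108.7 CPM in replicate 1, from 146 and 309 counts, at ranks 240 and 202. The intervals of these genes do not overlap between the libraries. For Mir7-2 they ran from 40.3 to 55.7 CPM in replicate 2 and from 97.2 to 121.5 CPM in replicate 1. They cover counting error only, and a difference beyond it was common. Of the 444 genes tested, 59.0% were called in either direction by the exact binomial test described below.

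**Figure D1:**
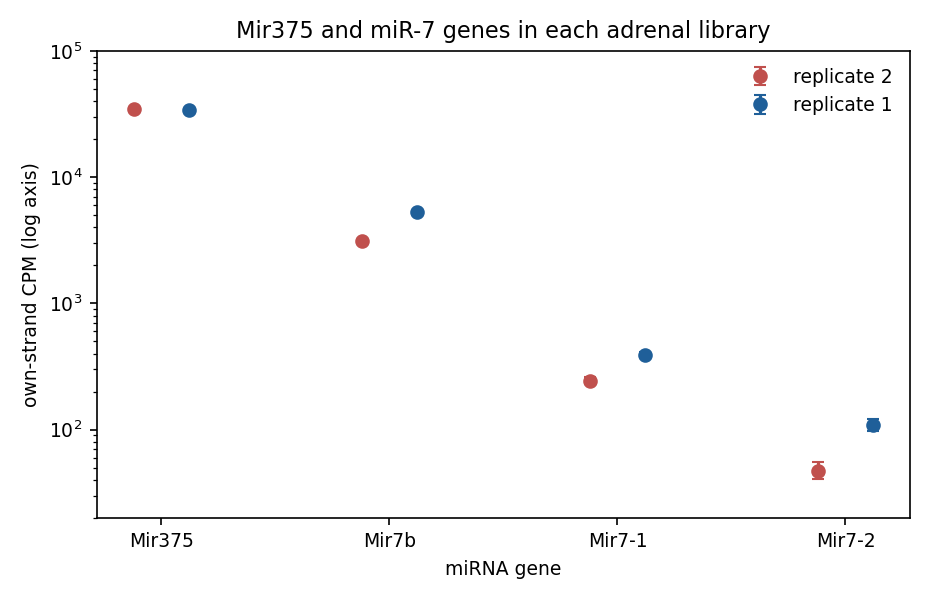
Own-strand CPM (log axis) of the 4 genes in replicate 2 and replicate 1, as points with 95% Wilson intervals for counting error. The Mir375 points lie at 34383 and 34144 CPM, and each miR-7 gene is lower in replicate 2.

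By counted reads, the order Mir375, Mir7b, Mir7-1, Mir7-2 was the same in both libraries. No gene's range over the libraries reached that of its neighbour in this order. Means over the libraries were 317.1 ± 102.6 CPM for Mir7-1 and 78.0 ± 43.3 CPM for Mir7-2 (SD, n = 2 each). The SD was 0.492% of the mean for Mir375, 36.3% for Mir7b, 32.4% for Mir7-1 and 55.5% for Mir7-2. All 4 reached 1 CPM in each library, as did 441 genes of the table. Every one of them had 0 opposite-strand counts in both libraries, a limit of 0.974 CPM in replicate 2 and 1.05 CPM in replicate 1. Counted without regard to strand, each gene had the same number of reads.

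**Figure D2:**
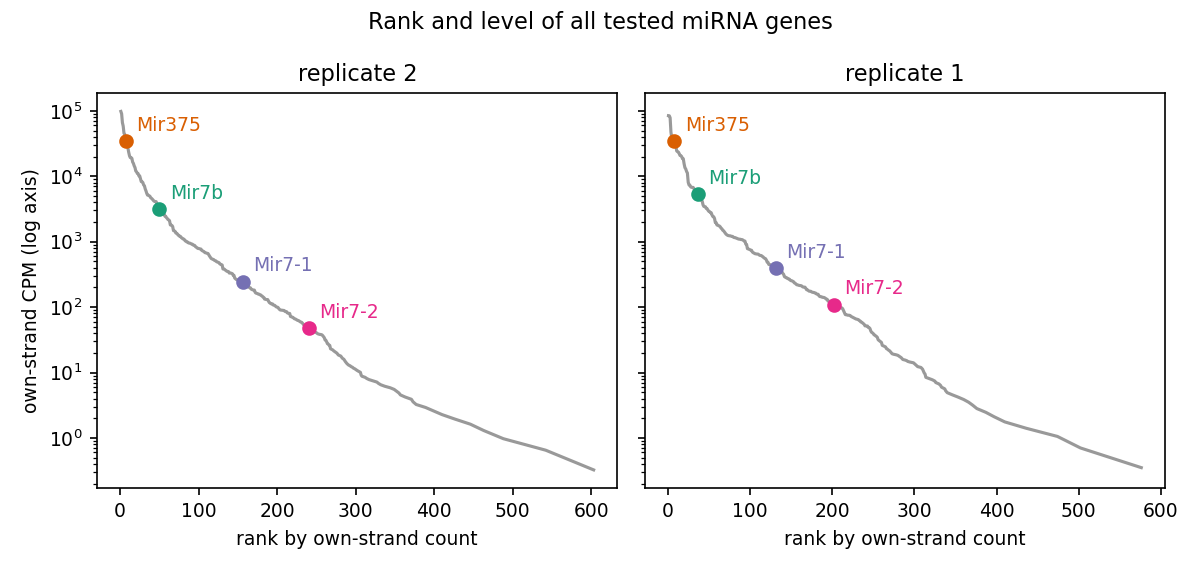
Own-strand CPM (log axis) against rank by own-strand count for the tested miRNA genes, with replicate 2 on the left and replicate 1 on the right. Mir375 lies near the top of both curves, at ranks 7 and 8, and the miR-7 genes lie at ranks 50, 156 and 240 in replicate 2 and at ranks 37, 132 and 202 in replicate 1.

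Between genes of the whole table, Mir375 lay closest to Mir143, a smooth muscle miRNA, by Euclidean distance of log2(CPM + 1) over the 2 libraries (0.23), followed by Mirlet7i (0.58) and Mir139 (0.72). Mir143 averaged 33823 ± 5041 CPM (SD, n = 2), so its level and that of Mir375 did not differ beyond this spread. The genes closest to Mir7b were Mir98 (0.29), Mir27b (0.50) and Mir93 (0.59). Closest to Mir7-1 were Mir467e (0.18), Mir329 and Mir500. Mir7-2 lay at a distance of 0.021 from Mir218-2, a miRNA known from motor neurons, which had 48.1 CPM in replicate 2 and 108.0 CPM in replicate 1. Next were Mir144, a red cell miRNA, at 0.32 and Mir32 at 0.34. With 2 libraries, this likeness is one of level and of a single difference.

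Set against Mir375 within each library, which needs no library total, counted miR-7 reads were fewer in replicate 2. The 3 miR-7 genes together had 10510 counts in replicate 2 and 16408 counts in replicate 1. That is 9.92% of the Mir375 count in replicate 2 (95% exact interval 9.73 to 10.1) and 16.9% in replicate 1 (16.6 to 17.2), with a mean of 13.4% ± 4.93 (SD, n = 2). Mir375 therefore had 10.1 times the counted miR-7 reads in replicate 2 and 5.92 times in replicate 1. Full-length mmu-miR-7a-5p reads are not in this sum, so these folds can be too high. The intervals do not overlap. On the log2 scale, replicate 2 over replicate 1 for this proportion was -0.77, with a 95% interval for counting error of -0.81 to -0.73. In CPM, differences beyond counting error were common, with 59.0% of the 444 genes tested called in either direction.

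Mir7b alone came to 9.08% of the Mir375 count in replicate 2 (8.89 to 9.27) and 15.4% in replicate 1 (15.2 to 15.7). Mir7-1 came to 0.711% in replicate 2 (0.661 to 0.764) and 1.14% in replicate 1 (1.07 to 1.21). Mir7-2 came to 0.138% in replicate 2 (0.116 to 0.162) and 0.318% in replicate 1 (0.284 to 0.356). For all 3 genes the proportion was lower in replicate 2, by -0.77 for Mir7b, -0.68 for Mir7-1 and -1.21 for Mir7-2 on the log2 scale. Full-length reads of the strand held by both Mir7-1 and Mir7-2 are lost to multiple mapping. The proportions of these genes and of the sum can therefore be too low.

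**Figure D3:**
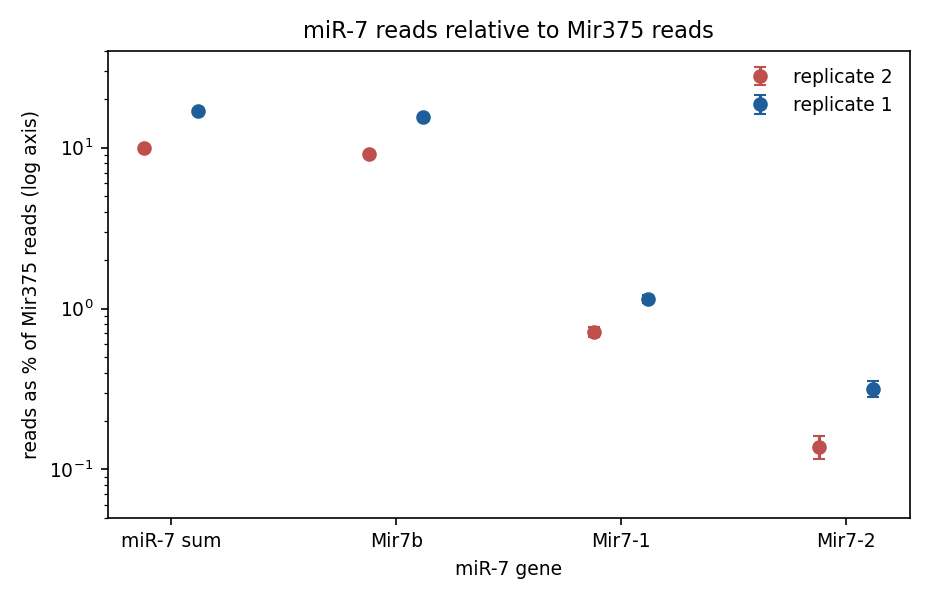
Reads of the miR-7 sum and of each miR-7 gene as a percentage of Mir375 reads (log axis) in replicate 2 and replicate 1, with 95% exact intervals for counting error. The sum lies at 9.92% and 16.9%, and each gene is lower in replicate 2.

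Within miR-7, the share of Mir7b was close in the 2 libraries. It held 91.4% of the counted miR-7 reads in replicate 2 (95% Wilson interval 90.9 to 92.0) and 91.4% in replicate 1 (90.9 to 91.8). Mir7-1 held 7.16% in replicate 2 (6.69 to 7.67) and 6.75% in replicate 1 (6.38 to 7.15), and these intervals overlap. Mir7-2 held 1.39% in replicate 2 (1.18 to 1.63) and 1.88% in replicate 1 (1.69 to 2.10), and these do not. The intervals cover counting error only. In CPM, a difference beyond it was common, with 59.0% of the 444 genes tested called in either direction by the exact binomial test. Mir7b had 12.8 times the count of Mir7-1 in replicate 2 and 13.5 times in replicate 1. Mir7-1 had 5.16 times the count of Mir7-2 in replicate 2 and 3.59 times in replicate 1. Full-length mmu-miR-7a-5p reads of Mir7-1 and Mir7-2 are left unassigned, so the share of Mir7b and its excess over Mir7-1 can be too high. The intervals do not cover this limit. With such reads left out, the shares of Mir7-1 and Mir7-2, and the ratio of their counts, do not settle the relative level of these genes.

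The difference between the libraries was tested across the table with exact binomial tests (two-sided, Benjamini-Hochberg adjusted over all genes tested), which compare these 2 libraries against counting error and no conditions. Of the 4 members, 3 were called lower in replicate 2 at an adjusted p under 0.05, and 30.4% of the 444 genes tested were called lower, 59.0% in either direction. A call is therefore common in this table. Log2 ratios of replicate 2 over replicate 1 were -0.76 for Mir7b, -0.67 for Mir7-1 (adjusted p = 9.73e-23) and -1.19 for Mir7-2 (adjusted p = 4.24e-17), and the p of Mir7b was too small for the arithmetic to hold. Mir375 had a log2 ratio of 0.010 and was not called (adjusted p = 0.175). Both its sign and its call turned with the scaling: its log2 ratio was -0.066 in counts without strand, -0.062 with TMM factors, 0.037 with DESeq2 size factors and 0.12 when totals omitted Mir122, and it was called in each. The median log2 ratio of the 4 members was -0.71, beside 0.073 over all genes tested.

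The spread between the libraries was of a similar size for many other genes. Among 257 genes whose mean count was 100 or more, the median absolute log2 ratio was 0.46 and 83.3% lay within a factor of 2. An absolute log2 ratio larger than that of Mir7b was found in 25.3% of them, larger than that of Mir7-1 in 30.7% and larger than that of Mir7-2 in 11.3%. For Mir375 that share was 98.8%, so under this scaling nearly all these genes differed more between the libraries. The log2 ratio of Mir375 moved with the totals, to -0.066 without strand and 0.12 without Mir122. The share was not computed under those totals. By edgeR's exact negative binomial test, in which a biological coefficient of variation of 0.393 estimated from the same libraries stands for the spread, no member was called (adjusted p = 1 for each of the 4). At an unadjusted p under 0.05 that test passed 24 of the 444 genes, and 2 genes at the adjusted threshold (0.450%). Because the dispersion was estimated from the difference between these same libraries, a gene with the usual spread can hardly be called, so the missing calls say nothing about the members. The unadjusted p was 0.156 for Mir7-2, 0.358 for Mir7b, 0.417 for Mir7-1 and 0.990 for Mir375.

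**Figure D4:**
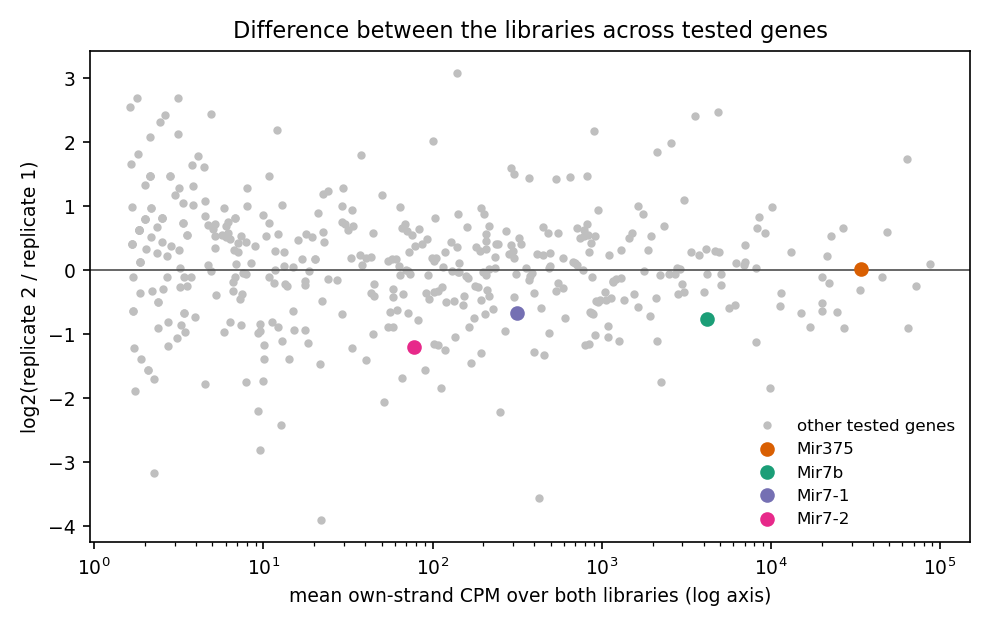
Log2 of replicate 2 over replicate 1 against mean own-strand CPM (log axis), 1 point per tested gene, with the 4 members coloured. Mir375 lies on the zero line at 0.010, and Mir7-1, Mir7b and Mir7-2 lie below it at -0.67, -0.76 and -1.19, among other genes of like level.

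The libraries differed in other ways that touch these values. Assigned own-strand reads were 3080062 in replicate 2 and 2843734 in replicate 1. Mir122, the main hepatocyte miRNA, held 9.79% of them in replicate 2 and 2.94% in replicate 1, so it moves every CPM. The 6 skeletal muscle markers summed to 0.334% in replicate 2 and 0.0929% in replicate 1, led by Mir206, and each had a count in at least 1 library. The endothelial Mir126a held 4.52% in replicate 2 and 8.43% in replicate 1. The 7 epithelial markers summed to 0.122% in replicate 2 and 0.132% in replicate 1, most of it Mir203, the only member of the 7 called lower (log2 ratio -0.47). Of the other epithelial markers 5 were called higher, among them Mir200b (2.02), and the median log2 ratio of the 7 was 0.72. The 4 kidney markers summed to 0.0449% in replicate 2 and 0.0301% in replicate 1, with 2 called higher. The 4 leukocyte markers summed to 0.155% in replicate 2 and 0.104% in replicate 1. Of these Mir150 (1.43) and Mir155 (0.21) were called higher, and Mir142 (-0.087) and Mir223 (-0.033) were not called. The 2 smooth muscle markers summed to 3.20% in replicate 2 and 3.86% in replicate 1, with Mir143 called lower (-0.31) and Mir145a higher (0.50). These calls are those of the exact binomial test, by which 28.6% of all genes tested were called higher and 30.4% lower. A called marker is therefore common in this table. None of the marker calls was made by the negative binomial test, which by its dispersion could hardly make them. No list of adrenal miRNA markers was used, so the tissue label was not checked by one. The part of other tissues in the miR-7 difference was not tested.

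Other miRNAs of pancreas, an organ in which miR-375 is abundant, were checked in the same way. The acinar miRNAs Mir216a and Mir216b had 0 counts in replicate 2 and 1 count each in replicate 1, and Mir217 had 9 and 5 counts, or 2.92 and 1.76 CPM. The 3 acinar markers summed to 2.92e-04% of the reads in replicate 2 and 2.46e-04% in replicate 1. The lists hold no miRNA that marks islets alone, and which cells gave the Mir375 reads was not tested. Mir148a, found in many tissues, had 600.0 CPM in replicate 2 and 1216 CPM in replicate 1 (log2 ratio -1.02, adjusted p = 6.91e-139 in the exact binomial test).

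Other miRNAs of neurons and neuroendocrine cells were present at far lower levels than Mir375. The list of 24 such genes, without the 4 members, summed to 0.292% of the reads in replicate 2 and 0.398% in replicate 1, with 17 genes at 1 CPM or more in each library, while 4 were at 0 in both. Mir7b alone, at 0.312% in replicate 2 and 0.527% in replicate 1, had more counted reads than the summed list in each library. Several listed genes have near-identical copies and can lose reads to multiple mapping, so the sum is a minimum and the order of both values is uncertain. Mir182, which belongs to a sensory and neural cluster, led the list by mean, with 804.2 CPM in replicate 2 and 1733 CPM in replicate 1. Mir132, induced by neuronal activity, had 932.8 and 647.4 CPM, and Mir137, a neuronal miRNA, had 456.8 and 764.8 CPM in replicates 2 and 1. The neuronal Mir9-1, Mir9-2, Mir124a-1 and Mir124a-3 were at 0 in both libraries. Both families have several near-identical copies in the genome, whose reads can be left unassigned, so these counts do not show absence. Which cells of the gland gave the reads of the listed genes, Mir182 and Mir132 among them, was not tested.

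Of the 17 tested genes of this list, 9 were called lower in replicate 2, 4 higher and 4 did not pass the exact binomial test, against 30.4% lower and 28.6% higher over all genes tested. Their median log2 ratio was -0.45, beside 0.073 over all genes. The list was chosen with earlier results of these data known, so these values are a description. It also counts genes of a common cluster, such as Mir182, Mir96 and Mir183, separately. Mir153, a miRNA of neurons and neuroendocrine secretion, had the lowest ratio of the list, with 8 counts in replicate 2 and 117 in replicate 1 (log2 ratio -3.90, adjusted p = 1.54e-27, and 0.0296 in the negative binomial test), and it was chosen after its values were seen. Mir137 had a log2 ratio of -0.74 and Mir182 one of -1.11, both called lower, and Mir132 one of 0.53, called higher. Of the 13 calls in this list, 12 were not made by the negative binomial test, those of Mir137, Mir182 and Mir132 among them (adjusted p = 1 each), and Mir153 was the exception.

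**Figure D5:**
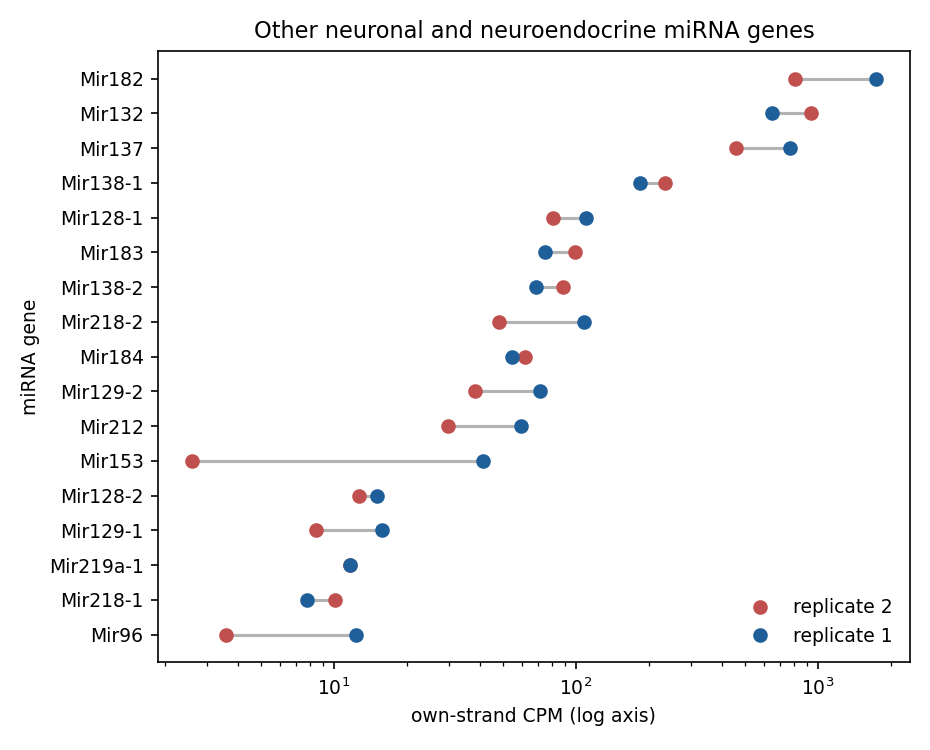
Own-strand CPM (log axis) of the 17 tested neuronal and neuroendocrine genes other than the members, in replicate 2 and replicate 1, joined by a line. The largest gap is that of Mir153, at 2.60 CPM in replicate 2 and 41.1 CPM in replicate 1, and the points of Mir219a-1 coincide.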

How the data were processed

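For each library the authors deposited a table of raw read counts by miRNA gene on mm10 and GENCODE M21, per the file descriptions. Aligner and counter: not given in the sources used here. Its 3 count columns, told apart by their values, ignore strand, keep the own strand or keep the opposite one. The own-strand column was used, with the column without strand as a check. The 4 special rows stayed out of totals. They held 32.0% unmapped, 25.9% multiply mapped and 7.54% unannotated reads in replicate 2, and 26.4%, 27.5% and 8.22% in replicate 1. All 2202 identifiers matched M21.

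CPM was computed over own-strand gene rows. Genes with 10 or more counts summed over the libraries were tested, and log2 ratios added 0.5 counts. Intervals are Wilson or exact Clopper-Pearson, and floors are 3 counts. No molecular identifiers are recorded, so both cover counting error only. The 2 libraries are biological replicates by label, and the binomial p-values set them against counting error only.

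The members and lists were chosen with earlier results of these data known. Named genes were the members, the 3 genes nearest in level to each, the leading list members and the nearest coding genes. The binomial test and the dispersion estimate were tested on simulated data. Tools were Python 3.11.15 with scipy 1.17.1, numpy 2.4.6, pandas 2.3.3 and matplotlib 3.10.9, and edgeR 4.0.16 and DESeq2 1.42.0 in R 4.3.3. Alternatives were the column without strand, other totals, TMM and DESeq2 factors, another pseudocount, other count minimums and the negative binomial test.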

Additional observations from a re-analysis of the deposited data

How the results depend on the processing

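Of 78 alternatives, 26 could not move by construction: single libraries in means of 2, and ratios to Mir375 under other scalings or without strand. Of the other 52, 34 stayed within the SD or interval of the value reported, on its side of the threshold, or within 1.5 times for counts. Those with another pseudocount could hardly move either, since it enters no p-value. The 3 miR-7 log2 ratios kept their sign in every alternative run. Mir375 did not: its log2 ratio was -0.066 without strand and -0.062 with TMM factors, and 0.037 with DESeq2 size factors and 0.12 with Mir122 left out of the totals, each called. These shifts come from the totals, under which the median log2 ratio over all genes tested was 0.0017 with TMM and 0.17 without Mir122. The log2 ratio of the miR-7 sum was -0.83 without strand, -0.83 with TMM and -0.65 without Mir122, against -0.76. The miR-7 proportion of Mir375 takes no total and stayed at 13.4%. In the negative binomial test, Mir7b (-0.76), Mir7-1 (-0.67) and Mir7-2 (-1.19) were not called, and 2 genes were called against 262, which follows from its dispersion, estimated from the same difference. Mir375 averaged 42219 CPM without strand and 36646 CPM without Mir122. With the unassigned reads in the totals, mean CPM was 12415 for Mir375, 1538 for Mir7b, 116.1 for Mir7-1, 28.8 for Mir7-2 and 1683 for the sum. No paired analysis was possible because the series holds 1 group.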

Other observations

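Genes of a common cluster moved apart between the libraries, a pattern chosen after its values were seen. Mir183, Mir96 and Mir182 are known to be cut from one transcript, and their log2 ratios of replicate 2 over replicate 1 were 0.42, -1.74 and -1.11. Mir132 and Mir212, also a known cluster, had 0.53 and -0.996. The counts behind the low members were 11 in replicate 2 and 35 in replicate 1 for Mir96, and 91 and 168 for Mir212. Mir182 had more, with 2477 in replicate 2 and 4927 in replicate 1. Behind the high members they were 305 and 211 for Mir183, and 2873 and 1841 for Mir132. The difference within a cluster was not tested.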
